A study of Mus musculus with 9 samples.

Results

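Cholesterol synthesis genes were followed in mouse megakaryocyte-erythroid progenitors (MEPs), the bone marrow cells that give rise to megakaryocytes and red blood cells. The genes were the 8 of 35275 rows of the count table whose identifier maps to Srebf2, Insig1, Hmgcs1, Idi1, Fdft1, Sqle, Lss or Dhcr7. All 8 were found, and all 8 passed the filter on low counts in every comparison. The rule used no measured value, but the genes were chosen with earlier results of these data known. None of the 8 encodes a lipoprotein receptor, so the uptake side of cholesterol supply was read from a further list that holds Vldlr.

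The MEPs carried the surface phenotype Lin-ckit+CD34-FcγRII/IIIlo. HS3A8-high and HS3A8-low MEPs were the upper and the lower part of binding by HS3A8, a single-chain antibody fragment (scFv) against heparan sulfate (HS), and the MPB49 control, mock-sorted with an scFv without HS binding, stands for total MEPs. Each of the 3 groups had 3 libraries, made from 25000 sorted cells per condition. No genetic change, drug or time course separated the groups, and the labels give neither strain, age nor sex. The study's methods list C57Bl/6 wild-type mice and congenic or GFP-expressing lines without saying which gave these libraries, and state that mice were age- and sex-matched within a range of young ages. The study describes the replicates of the HS3A8 fractions as individual mice, but not whether 1 mouse gave both fractions.

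Library totals ran from 11781637 to 15850037 counts. Summed levels of 12 erythroid genes were 14323 to 15140 CPM (counts scaled to a common library size) in HS3A8-high, 10947 to 12285 in HS3A8-low and 13216 to 14143 in the control. Car1 and Car2 carried most of that sum, while the late markers Alas2 and Slc4a1 stayed below 10 CPM in every library. Summed levels of 11 megakaryocyte genes were 38.1 to 58.5 CPM in HS3A8-high MEPs, 236 to 466 CPM in HS3A8-low and 166 to 281 CPM in the control. Replicate 3 of both HS3A8 fractions stood apart in 14 granulocyte-monocyte genes, which summed to 1968 CPM (HS3A8-high) and 5040 CPM (HS3A8-low) against 10.6 to 264 CPM elsewhere. Replicate 1 of the control stood apart from its own group, its counts giving a chi-square over degrees of freedom of 196 and 149.8 with control replicates 2 and 3, against 9.61 between those 2. These 3 libraries enter the results below, and values without them are given where a result rests on them.

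Cells make cholesterol from acetyl-CoA through the mevalonate pathway, and take it up as lipoprotein through surface receptors. When membranes of the endoplasmic reticulum hold little sterol, SCAP carries the transcription factor SREBP2, the product of Srebf2, to the Golgi, where proteases free its active part. SREBP2 then raises transcription of the synthesis enzymes, of Srebf2 itself and of Insig1, whose product holds SCAP back when sterol is plentiful. Red cell precursors need cholesterol for their membrane, which in mature red cells is rich in it.

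Promoters of 3 of the genes are shown, those of Srebf2 and Hmgcs1 because they hold an SREBP-type element, the kind of site that SREBP2 is known to bind, and that of Dhcr7 because it and Hmgcs1 are the genes whose HS3A8 fractions did not overlap below. RefSeq windows on GRCm38.p6, running from 250 bases before to 50 bases after a transcription start, were at hand for 6 of the 8 genes, and Fdft1 and Sqle are named only. Capitals mark matches, on either strand, to an SREBP-type element (TCACNCCA), the NF-Y box (CCAAT) or the GC box (GGGCGG). Each sequence is the plus strand, 5′ to 3′, of the 250 bases before a start.
Srebf2, chr15:82147019-82147268: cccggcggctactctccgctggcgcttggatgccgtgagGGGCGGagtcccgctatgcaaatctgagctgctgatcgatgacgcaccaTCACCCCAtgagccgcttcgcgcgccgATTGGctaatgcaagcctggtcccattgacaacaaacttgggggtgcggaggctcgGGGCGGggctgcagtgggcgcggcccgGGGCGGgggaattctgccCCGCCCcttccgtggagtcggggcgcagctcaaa
Hmgcs1, chr13:119690101-119690350: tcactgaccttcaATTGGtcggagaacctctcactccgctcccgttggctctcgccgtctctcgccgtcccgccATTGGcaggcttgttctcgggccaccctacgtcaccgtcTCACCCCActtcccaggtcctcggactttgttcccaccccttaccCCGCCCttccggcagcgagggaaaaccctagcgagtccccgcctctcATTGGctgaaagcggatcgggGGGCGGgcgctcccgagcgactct
Dhcr7, chr7:143829964-143830213: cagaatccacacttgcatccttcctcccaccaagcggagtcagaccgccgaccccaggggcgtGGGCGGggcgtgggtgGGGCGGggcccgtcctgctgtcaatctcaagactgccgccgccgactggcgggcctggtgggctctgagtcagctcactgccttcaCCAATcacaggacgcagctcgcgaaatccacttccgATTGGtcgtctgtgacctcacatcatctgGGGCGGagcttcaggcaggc

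The SREBP-type element lay 162 bases before the start of Srebf2 and 137 bases before that of Hmgcs1. It was found in 2 of the 6 genes with a window. Among 28 other cholesterol pathway genes with a window, 2 held it (7.14%), against 4.36% of all 32851 windows of 300 bases. Of the 8 windows of these 6 genes, 6 held an NF-Y box, against 37.4% of all windows, and 7 held a GC box, against 35.7%. By gene, both boxes were present in 6 of 6, and among 28 other cholesterol pathway genes with a window in 17 (60.7%) and 22 (78.6%). Dhcr7 has 3 annotated starts with a window. The one shown holds 2 NF-Y boxes, 85 and 49 bases before the start, and 3 GC boxes, but no match to TCACNCCA. The windows from chr7:143822917 and chr7:143823149 hold 0 NF-Y boxes, and 1 and 0 GC boxes. The place of Dhcr7 in the count by gene for the NF-Y box thus rests on the window shown, the richest in matches. All windows of these genes but those of Idi1 (52.3%) and of Dhcr7 from chr7:143823149 (48.7%) lay above the median GC content of all windows, 52.7%. The highest was that of Insig1, 71.7%, and the shares were not adjusted for GC content. These are matches of letters, and no binding was measured.

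Levels per length ordered the 8 genes from Lss to Srebf2. Per kilobase of exon, the mean over the 9 libraries was 3.97 ± 0.741 CPM (SD) for Lss, 5.50 ± 0.875 for Hmgcs1, 5.71 ± 0.827 for Fdft1 and 6.13 ± 1.11 for Insig1. Above these stood Idi1 with 8.25 ± 2.04, Dhcr7 with 12.4 ± 1.69, Sqle with 13.9 ± 1.60 and Srebf2 with 16.3 ± 3.93 CPM per kilobase. Every pair of neighbours in that order overlapped over the 9 libraries. The 4 lowest genes reached at most 8.34 CPM per kilobase and did not overlap Dhcr7, whose lowest library was at 10.1. The divisor is the union of all annotated exons, which is 10787 bases for Lss, so that unused exons lower its value.

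**Figure D1:**
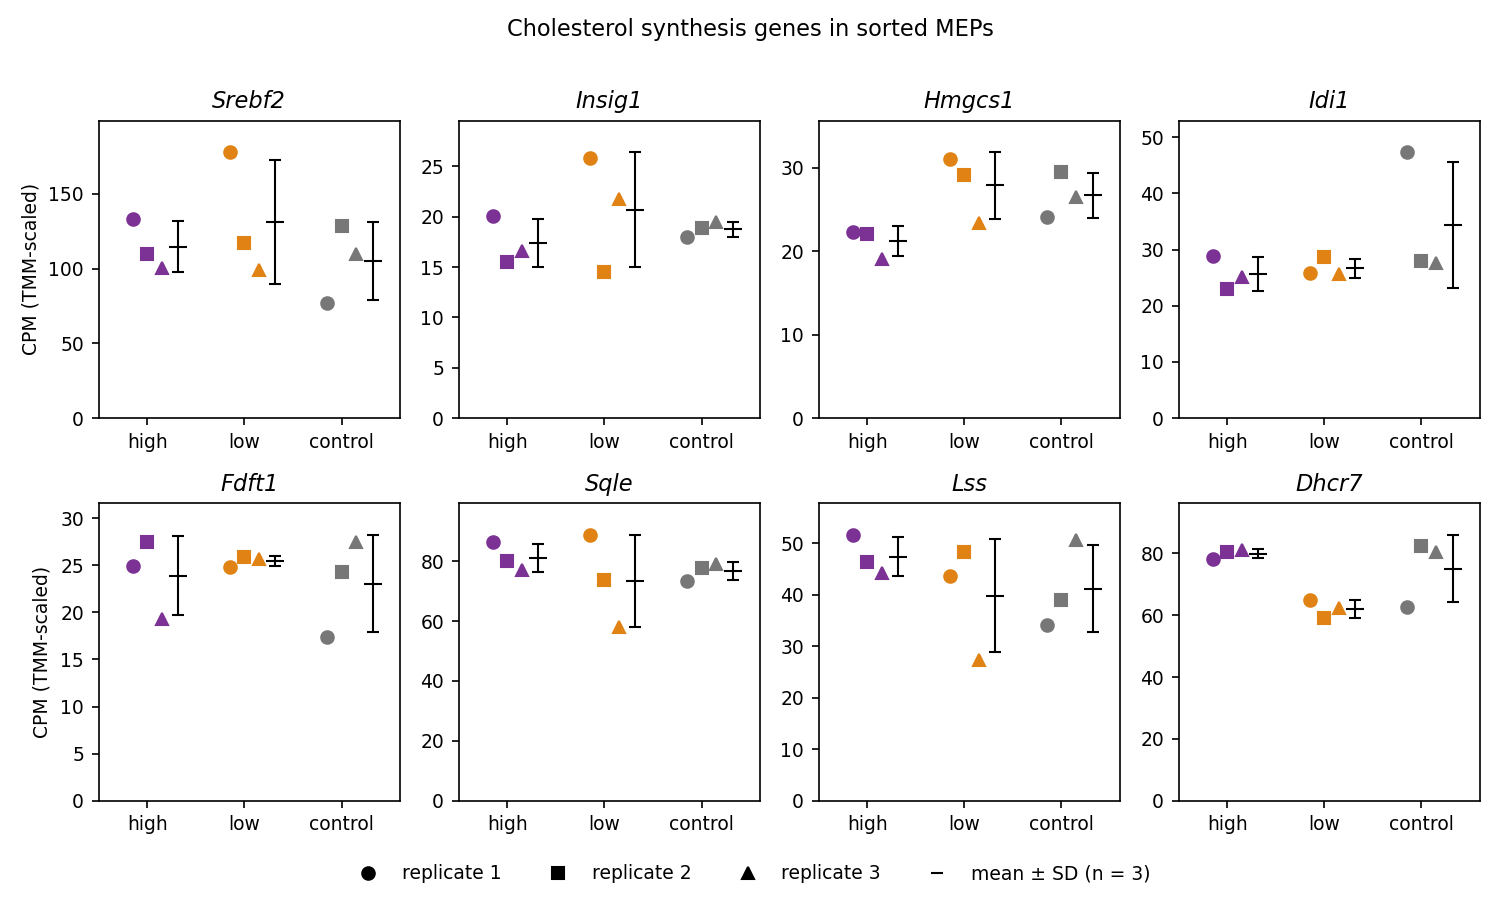
CPM of the 8 cholesterol synthesis genes (vertical axes, TMM-scaled over all 9 libraries, from 0) in HS3A8-high, HS3A8-low and MPB49 control MEPs (horizontal axes). Symbols are replicates 1 to 3 and bars the mean ± SD (n = 3); the high and low libraries are apart for Dhcr7 and Hmgcs1, and overlap for the other 6 genes.

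The first question was whether MEPs that bind more HS3A8 differ in these genes from MEPs that bind less. No member passed the test: edgeR's quasi-likelihood test called 0 of the 8 genes at an adjusted p under 0.05, where it called 3.82% of all genes tested. At an unadjusted p under 0.05 there were 2 of the 8, Dhcr7 and Hmgcs1, against 19.8% of all genes, and DESeq2 called 1, Dhcr7, against 8.87% of all genes. Their directions were opposite, Dhcr7 having the higher level in HS3A8-high and Hmgcs1 in HS3A8-low. Over the 8 genes the median log2 fold change of HS3A8-high over HS3A8-low was -0.10, with 3 positive and 5 negative, and the median over all genes was -0.029.

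Dhcr7 (chr7:143823145-143848410, GRCm38), 7-dehydrocholesterol reductase, catalyses the last step to cholesterol in the Kandutsch-Russell branch. Its level was 78.3, 80.6 and 81.1 CPM in the HS3A8-high libraries, 65.0, 59.0 and 62.3 in HS3A8-low MEPs, and 62.5, 82.3 and 80.5 in the control. Every HS3A8-high library lay above every HS3A8-low library, and control replicate 1 lay with HS3A8-low while control replicates 2 and 3 lay with HS3A8-high. The log2 fold change was 0.34 (SE 0.0885, 95% interval 0.13 to 0.55), or 1.26-fold, with an adjusted p of 0.0908 by edgeR. DESeq2 gave 0.36 with an adjusted p of 0.0230, and the adjusted p over all alternatives ran from 0.0230 to 0.273. Between the same-numbered libraries the log2 difference was 0.27, 0.45 and 0.38, in the same direction in 3 of 3 pairs.

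Hmgcs1 (chr13:119690379-119708260), cytosolic HMG-CoA synthase, acts early in the mevalonate pathway. It was at 22.3, 22.1 and 19.1 CPM in HS3A8-high MEPs, 31.1, 29.2 and 23.4 in HS3A8-low MEPs, and 24.1, 29.5 and 26.5 in the control. All 3 HS3A8-high libraries lay below the 3 HS3A8-low and the 3 control libraries, although the highest HS3A8-high and the lowest HS3A8-low library were close. HS3A8-high over HS3A8-low gave -0.42 on the log2 scale (SE 0.166, 95% interval -0.82 to -0.030), with an adjusted p of 0.220 by edgeR. Same-numbered libraries differed by -0.48, -0.40 and -0.29 on the log2 scale. Groups without overlap were found for these 2 of the 8 genes and for 28.7% of all genes, so their number is near the background. Of the Hmgcs1 exon bases, 12.1% are shared with Gm48342 on the other strand, and whether the counting used the strand is not given in the sources used here.

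Both regulators were read next. Srebf2 (chr15:82147181-82205379) stood at 133, 109.7 and 100.3 CPM in HS3A8-high MEPs, 178, 117 and 99.0 in HS3A8-low MEPs, and 76.9, 128 and 109.7 in the control. Replicate 1 was the highest library of both HS3A8 fractions and the lowest of the control, and all groups overlapped. The log2 fold change of HS3A8-high over HS3A8-low was -0.23 (95% interval -0.77 to 0.32) with an adjusted p of 0.652, and it was 0.079 without HS3A8-low replicate 1. Insig1 (chr5:28071363-28078662), which encodes the endoplasmic reticulum protein that retains SCAP, was at 20.1, 15.5 and 16.6 CPM in HS3A8-high MEPs, 25.8, 14.5 and 21.8 in HS3A8-low MEPs, and 18.0, 18.9 and 19.4 in the control. Its control libraries were the closest together, and the groups overlapped. Its log2 fold change was -0.28 (95% interval -0.87 to 0.31, adjusted p = 0.597), and -0.062 without HS3A8-low replicate 1.

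Among the 4 other enzymes no HS3A8 fraction stood apart. Idi1 (chr13:8885501-8892451), isopentenyl-diphosphate isomerase, which balances the isoprene units, was at 28.9, 22.9 and 25.1 CPM in the HS3A8-high libraries, against 25.8, 28.7 and 25.7 in those of HS3A8-low. In the control it was at 47.3, 28.1 and 27.7 CPM, replicate 1 being the highest of all 9 libraries. Its log2 fold change between the HS3A8 fractions was -0.085 (95% interval -0.43 to 0.26, adjusted p = 0.798), and -0.0038 without HS3A8-high replicate 2.

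Fdft1 (chr14:63145150-63179578), squalene synthase, commits farnesyl diphosphate to sterols. It was at 24.9, 27.5 and 19.3 CPM in HS3A8-high MEPs, 24.9, 25.9 and 25.7 in HS3A8-low MEPs, and 17.4, 24.3 and 27.5 in the control. HS3A8-high replicate 3 and control replicate 1 were its low libraries. Between the fractions it was at -0.12 on the log2 scale (95% interval -0.52 to 0.28, adjusted p = 0.754), and 0.022 without HS3A8-high replicate 3. Ctsb on the other strand shares 18.3% of its exon bases, the largest share among the 8 genes.

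Sqle (chr15:59315077-59331192), squalene epoxidase, catalyses the first oxygen-requiring step. Its levels were 86.4, 80.2 and 77.2 CPM in HS3A8-high MEPs, 88.7, 73.6 and 57.9 in HS3A8-low MEPs, and 73.3, 77.7 and 78.9 in the control. HS3A8-low held both its highest and its lowest library. Its log2 fold change was 0.12 (95% interval -0.27 to 0.51, adjusted p = 0.747), and -0.024 without HS3A8-low replicate 3. Lss (chr10:76531588-76557138), lanosterol synthase, closes the sterol rings. It was at 51.6, 46.4 and 44.2 CPM in HS3A8-high MEPs, 43.7, 48.2 and 27.4 in HS3A8-low MEPs, and 34.0, 38.9 and 50.5 in the control. HS3A8-low replicate 3 was again the lowest library. HS3A8-high over HS3A8-low gave 0.23 on the log2 scale (95% interval -0.28 to 0.73, adjusted p = 0.623), and 0.021 without that library.

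**Figure D2:**
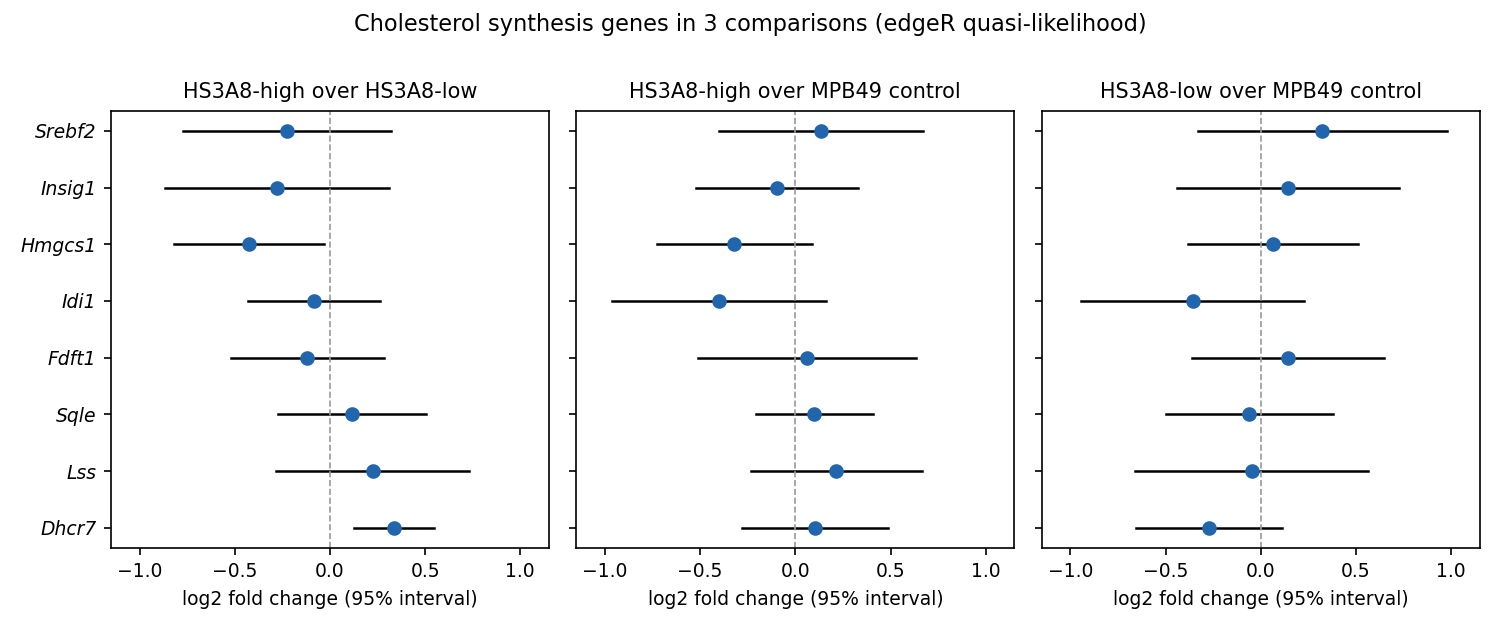
Log2 fold changes of the 8 genes (horizontal axes, points) with 95% intervals (bars) from edgeR's quasi-likelihood test in 3 comparisons of 3 with 3 libraries. Intervals leave out 0 for Dhcr7 and Hmgcs1 in HS3A8-high over HS3A8-low and for no gene in the comparisons with the MPB49 control; no adjusted p is under 0.05.

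The comparisons with the MPB49 control ask how each HS3A8 fraction differs from total MEPs. They share the control libraries with each other and the HS3A8 libraries with the comparison above. For HS3A8-high over control, edgeR called 0 of the 8 genes at an adjusted p under 0.05, 0 at an unadjusted p, and DESeq2 0. Among all genes edgeR called 0.0174%, 4.89% had an unadjusted p under 0.05, and DESeq2 called 1.06%. The largest values were -0.40 on the log2 scale for Idi1 (95% interval -0.96 to 0.16, adjusted p = 0.733) and -0.32 for Hmgcs1 (95% interval -0.73 to 0.086, adjusted p = 0.733). Without control replicate 1 the value of Idi1 was -0.11, the nearest to 0 of all leave-one-out values. Hmgcs1 was the 1 gene of the 8 whose groups did not overlap, against 14.2% of all genes. Dhcr7 was at 0.10 (95% interval -0.28 to 0.48, adjusted p = 0.804), and at -0.019 without control replicate 1.

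For HS3A8-low over control, edgeR called 0 of the 8 genes at either threshold and DESeq2 0. Among all genes edgeR called 0%, 5.67% had an unadjusted p under 0.05, and DESeq2 called 0.672%. The values ran from -0.36 for Idi1 (95% interval -0.94 to 0.23) to 0.32 for Srebf2 (95% interval -0.33 to 0.98). Both rest on single libraries, since Idi1 was at -0.060 without control replicate 1, and Srebf2 at 0.042 without HS3A8-low replicate 1 and 0.14 without control replicate 1. Dhcr7 was at -0.27 (95% interval -0.66 to 0.11, adjusted p = 0.840) and stayed between -0.39 and -0.20 with each library left out. None of the 8 genes had groups that did not overlap, against 12.8% of all genes. All 8 intervals held 0 in both comparisons with the control, and differences within them were not detectable here.

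Levels of these genes also varied between replicate numbers. Same-numbered HS3A8-high and HS3A8-low libraries deviated together from their group means over 9349 genes of at least 5 CPM. Their r was 0.735, 0.494 and 0.643 for numbers 1 to 3. The numbers were therefore treated as pairing these libraries, although neither the labels nor the study say that they share a mouse. In 6 of the 8 genes the log2 range between replicate numbers, averaged over both fractions, was over the absolute mean difference between fractions. The share was 65.4% of all 9349 genes. These are unlike measures, and with noise alone a range tends to be the larger, so the shares do not rank the sources of spread. The median range was 0.352 for the 8 genes and 0.290 for all. Number 1 was the highest for 7 of the 8 genes and 40.0% of all genes, and number 3 the lowest for 6 of the 8 and 36.4% of all. Srebf2 and Insig1 had the widest ranges, 0.63 and 0.60, and Dhcr7 the narrowest, 0.049.

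With the replicate number as a block, the called share was 11.6% of all genes, and edgeR still called 0 of the 8. Dhcr7 then had an adjusted p of 0.0551 and Hmgcs1 of 0.0845. The mean standardised level of the 8 genes was 0.42, -0.055 and -0.45 in HS3A8-high replicates 1 to 3, 0.70, -0.11 and -0.69 in HS3A8-low, and -0.50, 0.30 and 0.39 in the control. Number 1 was thus high in both fractions, and the control, whose numbers do not pair with the fractions, had its lowest value in replicate 1. Replicate 3, lowest in both fractions, was also the pair with the granulocyte-monocyte signal given above, and the part of that signal in these levels was not tested.

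**Figure D3:**
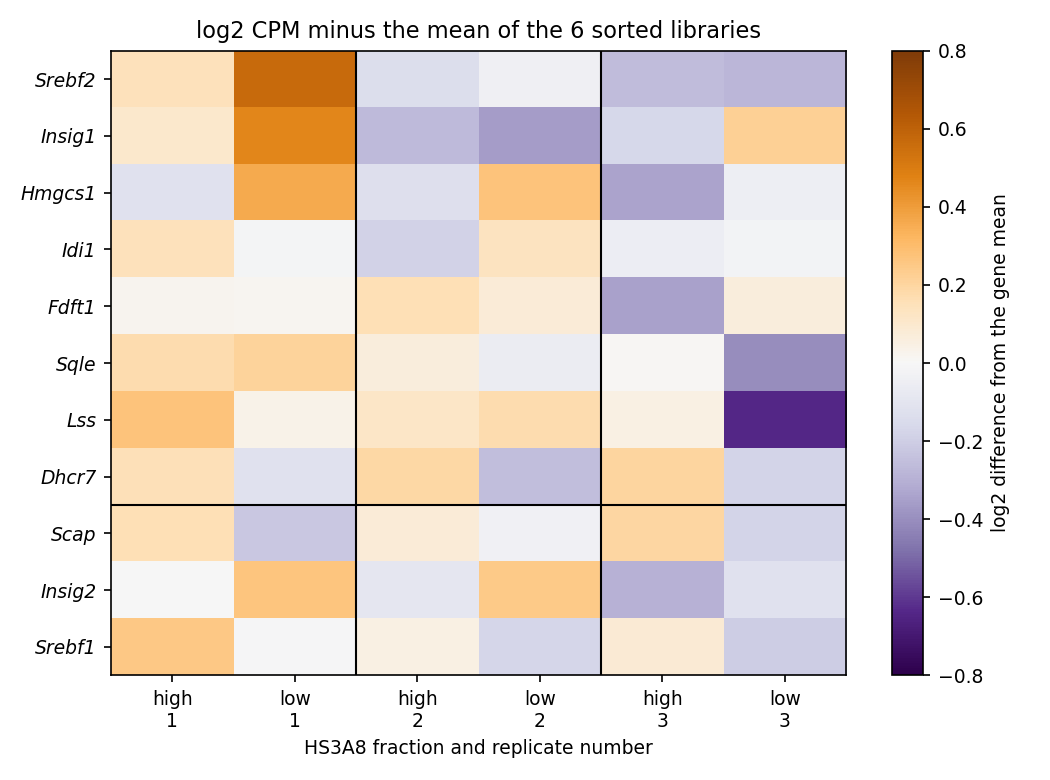
Colours give log2 CPM minus the mean of the 6 HS3A8-sorted libraries for the 8 genes (above the horizontal line) and for Scap, Insig2 and Srebf1 (below it), with libraries in columns by replicate number and fraction. Srebf2 and Insig1 are highest in low 1. Within every number, Dhcr7, Scap and Srebf1 are higher in high, and Hmgcs1 and Insig2 are higher in low.

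Control replicate 1 departed from control replicates 2 and 3 by more than 1.5-fold in 2 of the 8 genes, against 43.6% of all genes. Srebf2 was at 0.647 times their mean and Idi1 at 1.70 times. Dhcr7 was at 0.769 times and Insig1 at 0.936 times.

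Likeness over the 9 libraries was measured as Pearson's r with the mean standardised level of the 8 genes, among 9250 genes outside the lists with at least 5 CPM, whose median r was 0.068. Among the 5 highest values were those of Nisch (0.982), Adgrl2 (0.966), Zfp281 (0.951) and Zfp638 (0.951). Adgrl2, for one, was at 64.5, 41.5 and 28.5 CPM in HS3A8-high MEPs, 80.4, 42.8 and 28.8 in HS3A8-low MEPs, and 30.1, 52.1 and 48.7 in the control. It was highest in number 1 and lowest in number 3 of HS3A8-high, and lowest in replicate 1 of the control, as the mean of the 8 genes was. The 9 points share libraries and depth, and these genes were selected as the most alike, so the values are a description.

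The rest of the pathway was read from 41 other genes, of which 37 passed the filter in HS3A8-high against HS3A8-low. EdgeR called 2 of the 37, Vldlr and Apoe, near the 3.82% called among all genes. Both were lower in HS3A8-high, as were 379 of the 451 genes called in all, and the median log2 fold change was -0.025. Of the 14 other synthesis enzymes 0 were called by edgeR or by DESeq2, with 0 also at an unadjusted p under 0.05, and their values ran from -0.13 to 0.31. The 8 other regulators of SREBP processing gave 0 calls by either tool and 1 unadjusted p under 0.05, that of Scap.

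Scap, the sterol sensor that escorts SREBP2, was at 142, 134 and 145 CPM in HS3A8-high MEPs, 109, 124 and 112 in HS3A8-low MEPs, and 88.7, 139 and 140.0 in the control. Its fractions did not overlap, with a log2 fold change of 0.26 (SE 0.0855, adjusted p = 0.151 by edgeR). Control replicate 1 lay below every HS3A8-low library, and the other controls lay within the range of HS3A8-high. Insig2 was at -0.29 (adjusted p = 0.411) and Srebf1, which encodes the SREBP of fatty acid synthesis, at 0.23 (adjusted p = 0.256).

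Uptake genes gave 1 call among 9 tested. Vldlr, the very-low-density lipoprotein receptor, had 0 counts in all 3 HS3A8-high libraries and 32, 39 and 31 counts in HS3A8-low. Control replicate 1 had 0 counts too, and control replicates 2 and 3 had 27 and 22. It thus passed the count filter only through HS3A8-low, so that a difference was built into its being tested. Its level was at least 10.7-fold higher in HS3A8-low than the floor of 3 counts per library allows in HS3A8-high (adjusted p = 0.0223 by edgeR), and the call was lost, with an adjusted p of up to 0.139 over the alternatives, when all 9 libraries shared a fit or any library but HS3A8-high replicate 3 was left out.

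Of 6 efflux and storage genes tested, 5 had a negative log2 fold change, the median was -1.57, and edgeR called 1. Among all genes tested, 46.6% had a positive value. Abcg1 and Soat1 needed the HS3A8-low libraries to pass the count filter, so a direction was built into their being tested. The sign count and the median include both genes. Apoe, the apolipoprotein that carries cholesterol out of and between cells, was at 208, 202 and 202 CPM in HS3A8-high MEPs, 722, 701 and 474 in HS3A8-low MEPs, and 546, 423 and 359 in the control. All HS3A8-high libraries lay below every other library. The log2 fold change was -1.66 (SE 0.164, adjusted p = 0.00868 by edgeR), between -1.83 and -1.54 with each library left out. The call was lost, with an adjusted p of up to 0.0793 over the alternatives, without HS3A8-high replicate 1, HS3A8-high replicate 2 or HS3A8-low replicate 2. Against the control it was -1.10 in HS3A8-high (adjusted p = 0.197, and 8.04e-05 by DESeq2).

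The sterol exporters Abca1 and Abcg1, both targets of the LXR receptors, were called by DESeq2 and by edgeR with the block, but not by edgeR as fitted here. EdgeR also called Abcg1 with no count filter, with all 9 libraries in 1 fit and without both replicates 3, and Abca1 without HS3A8-high replicate 1. Abca1 was at 6.21, 1.96 and 1.79 CPM in the HS3A8-high libraries against 14.8, 11.9 and 12.4 in those of HS3A8-low (log2 fold change -1.99, adjusted p = 0.0870, and 0.0216 with the block). Abcg1 was at 2.76, 0.677 and 3.37 CPM against 21.9, 15.3 and 8.15 (log2 fold change -2.76, adjusted p = 0.0610, and 0.0332 with the block). In both, the fractions did not overlap. Soat1, which esterifies cholesterol for storage, was at 0.439, 0.527 and 12.3 CPM in the HS3A8-high libraries against 3.80, 6.82 and 25.7 in those of HS3A8-low (adjusted p = 0.594, and 0.0454 with the block). Its highest library in each fraction was replicate 3, where the granulocyte-monocyte genes were high. Same-numbered libraries of Soat1 differed by -3.11, -3.69 and -1.06 on the log2 scale. EdgeR also called Soat1 without both replicates 3.

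With the block, 5 of the 37 other pathway genes were called, all lower in HS3A8-high, a share near the 11.6% of all genes called in that fit. Of these, Vldlr passed the count filter only through HS3A8-low. Soat1, with 7, 7 and 186 counts in HS3A8-high, also needed the HS3A8-low libraries to pass. So did Abcg1, with 44, 9 and 51 counts in HS3A8-high. For Vldlr, Soat1 and Abcg1, a direction was thus built into being tested. Beside these differences, the summed megakaryocyte markers did not overlap between the fractions, as given above, and the summed T and NK cell markers were 4.29 to 35.6 CPM in the HS3A8-high libraries against 142 to 163 CPM in HS3A8-low. Of 7 stem and progenitor markers tested, 2 were called, both lower in HS3A8-high, with a list median of -2.87, against 3.82% of all genes called. Their sums overlapped, at 513 to 816 CPM in HS3A8-high and 522 to 830.5 CPM in HS3A8-low. Kit went the other way, being higher in HS3A8-high in 3 of 3 pairs. Erythroid sums did not overlap either and were higher in HS3A8-high, the direction of Dhcr7, Scap and Fads2. The part of these markers in the levels of the genes named was not tested. In bulk libraries, fewer cells of a type and less RNA per cell cannot be told apart.

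**Figure D4:**
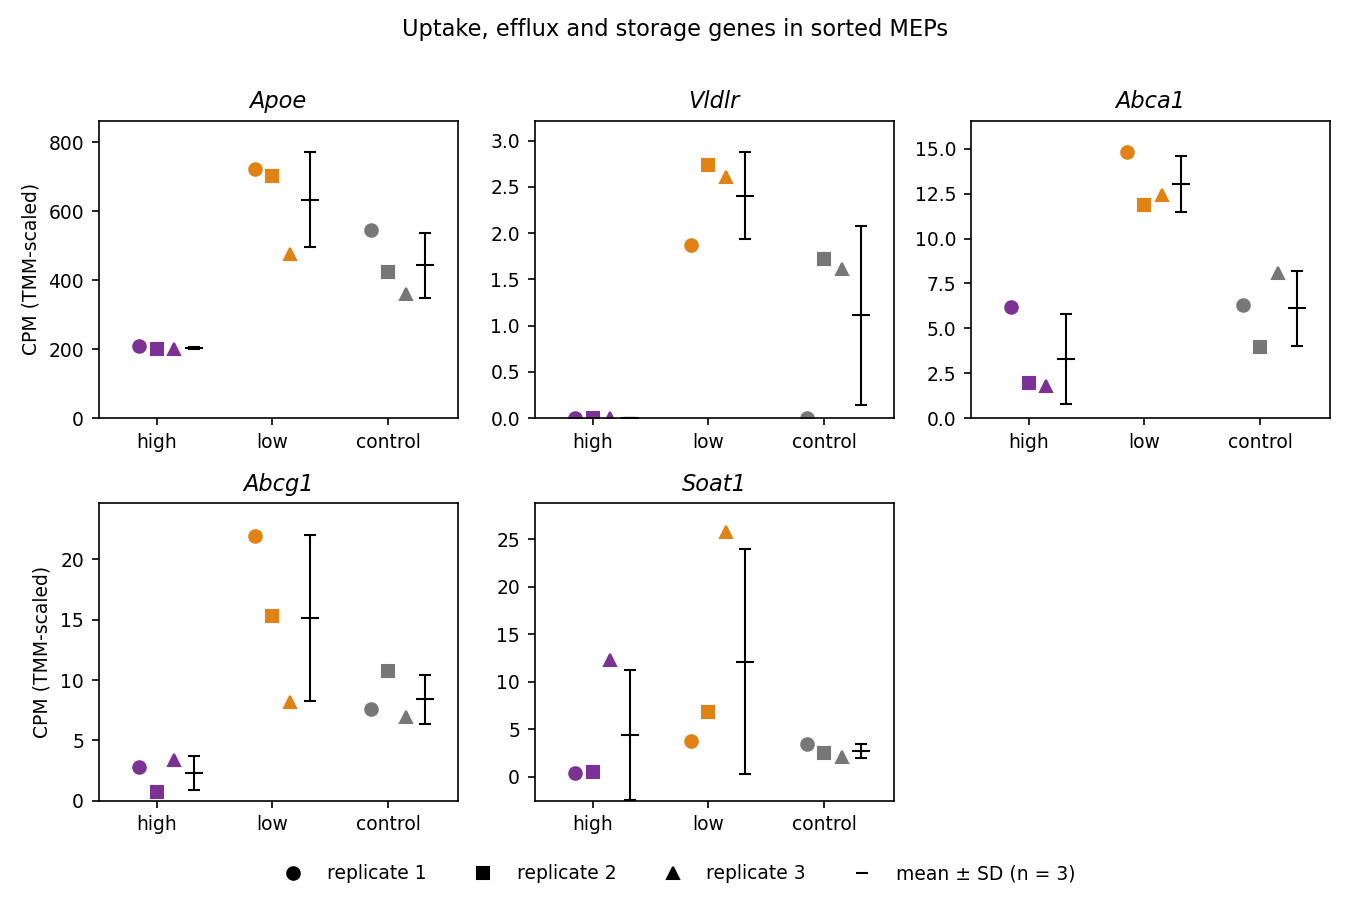
CPM of 5 genes of cholesterol uptake, efflux and storage (vertical axes, TMM-scaled) in HS3A8-high, HS3A8-low and MPB49 control MEPs, with symbols for replicates and bars for the mean ± SD (n = 3). Apoe, Abca1, Abcg1 and Vldlr are lower in all HS3A8-high than in all HS3A8-low libraries, and Soat1 is highest in replicate 3 of both fractions.

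Neighbouring lipid pathways gave 1 call. Fads2, the delta-6 desaturase of fatty acids, was at 154, 155 and 154 CPM in HS3A8-high MEPs, 115, 117 and 104 in HS3A8-low MEPs, and 94.1, 146 and 138 in the control. Its log2 fold change was 0.44 (SE 0.0826, adjusted p = 0.0391 by edgeR, up to 0.225 over the alternatives), and the call was lost with any 1 library left out or all 9 in a shared fit. It was the only 1 of 9 fatty acid synthesis genes called, and 0 of 7 genes of the isoprenoid branches were called by edgeR or DESeq2, with 1 at an unadjusted p under 0.05. In HS3A8-high against control 0 of 36 and in HS3A8-low against control 0 of 37 other cholesterol pathway genes were called by edgeR, with 2 at an unadjusted p under 0.05 in each, and DESeq2 called 1, Apoe, and 0.

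**Figure D5:**
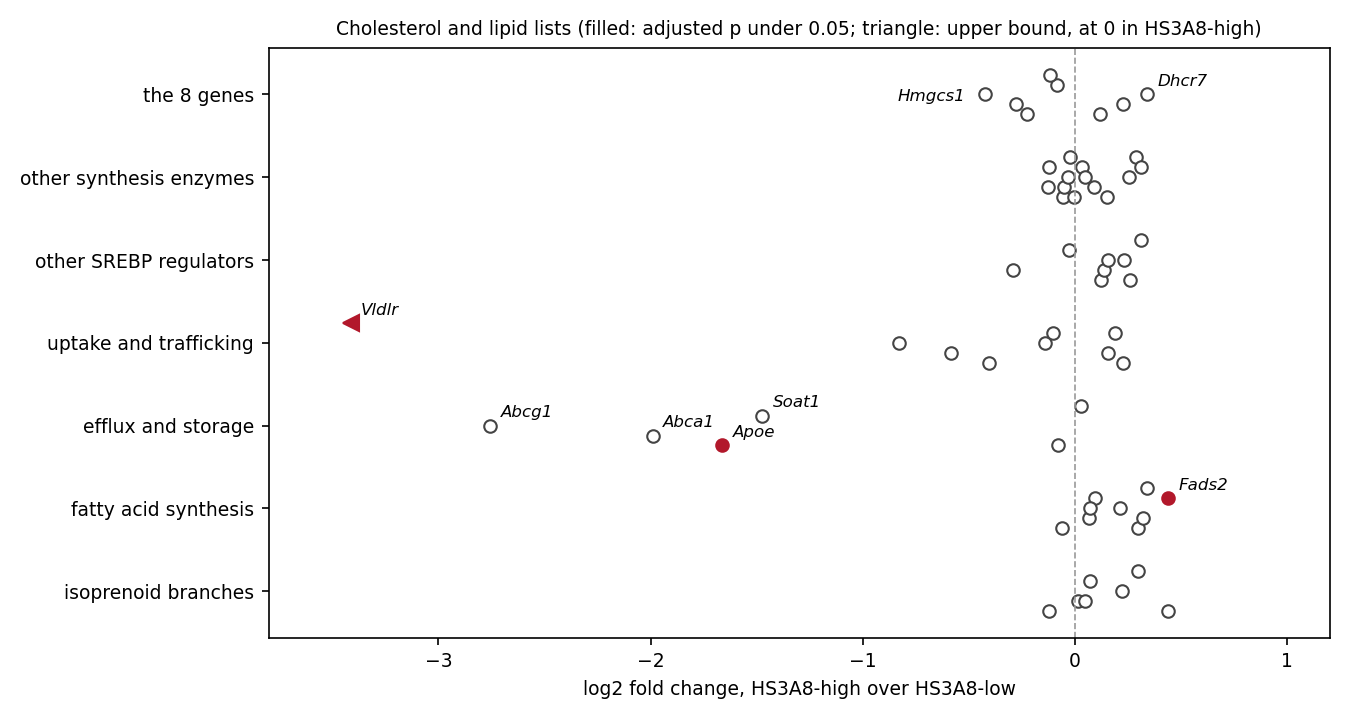
Log2 fold change of HS3A8-high over HS3A8-low (horizontal axis) for each tested gene (points) of the 8 genes, 4 further cholesterol lists and 2 neighbouring lipid lists (vertical axis). Filled symbols had an adjusted p under 0.05, and the triangle marks the bound for Vldlr. The synthesis enzymes gather around 0 while the largest negative values lie among uptake, efflux and storage. Of these, Vldlr, Abcg1 and Soat1 needed the HS3A8-low libraries to pass the count filter, so a direction was built into their being tested.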

How the data were processed

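RNA-seq of 9 libraries of sorted mouse MEPs was analysed, 3 per group, grouped by the labels. The authors used STAR for alignment against the mm10 transcriptome. The deposited values are unnormalized counts, 1 whole number for each gene and library. The submitters' processing notes list STAR 2.5 and HTSeq 0.6.1 without a role; the annotation release and strand setting are not given in the sources used here. Identifiers were joined to GENCODE M21 on GRCm38, and 34490 of 35275 matched. Counting floors are 3 counts per library and cover counting error only.

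Tests were the quasi-likelihood test of edgeR 4.0.16 in R 4.3.3 (TMM, filterByExpr, Benjamini-Hochberg over all genes tested, adjusted p under 0.05), with 2 groups per fit. CPM were TMM-scaled over all 9 libraries. Likeness and pairing used log2(CPM + 0.5). The study gives individual mice as the replicates of the HS3A8 fractions and does not say this of the control, where p-values may measure a technical spread. Replicate numbers were tested for pairing by the correlation of deviations from group means (same number 0.494 to 0.735, different number -0.683 to 0.152 between HS3A8-high and HS3A8-low). They did not pair the control (-0.524 to 0.0619). Alternatives were DESeq2 1.42.0 (its size factors and its test), a replicate block, a single fit to all 9 libraries, no filter or a minimum mean count of 10, omission of each library in turn and of both replicates 3. The code was tested on simulated counts.

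The members and lists were chosen with earlier results of these data known. Named genes were the 8, then Scap, Insig2 and Srebf1, any listed pathway gene with an adjusted p under 0.05 with or without the block, and the 5 genes most like the mean of the 8; 3 genes that the rule names are not reported here.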

Additional observations from a re-analysis of the deposited data

How the results depend on the processing

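Replicate numbers were treated as pairing the HS3A8 fractions. In HS3A8-high against HS3A8-low, the fit with the replicate block called 0 of the 8 genes, 5 other pathway genes and 1367 genes in all. The fit without the block gave 0, 2 and 451. In HS3A8-high against control, where numbers do not pair the libraries, the block gave 0 genes instead of 2. The DESeq2 test called 1 of the 8 genes (Dhcr7, log2 fold change 0.36), 4 other pathway genes and 1224 genes in HS3A8-high against HS3A8-low, 1 other pathway gene and 143 genes in HS3A8-high against control, and 93 genes in HS3A8-low against control. HS3A8-high against control gave 9 genes with no count filter and 32 with all 9 libraries in 1 fit.

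With single libraries left out, edgeR called 0 to 2 other pathway genes and 0 to 439 genes between the fractions, the lowest without HS3A8-low replicate 2. In HS3A8-high against control it called 0 to 1 other pathway genes and 0 to 5 genes, the highest without control replicate 1. Without both replicates 3, 4 other pathway genes and 748 genes were called between the fractions, and 0 genes in HS3A8-high against control. None of the 8 genes was called by edgeR in any of these fits.

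Directions that turned belonged to genes that were not called. Over omissions of 1 library or of both replicates 3, the log2 fold change between the fractions ran from -0.39 to 0.079 for Srebf2, from -0.22 to 0.040 for Fdft1 (0.040 without both replicates 3) and from -0.024 to 0.30 for Sqle. In HS3A8-high against control the ranges were -0.049 to 0.32 for Srebf2, -0.11 to 0.35 for Fdft1 and -0.019 to 0.18 for Dhcr7. In HS3A8-low against control they were -0.049 to 0.34 for Insig1, -0.021 to 0.19 for Hmgcs1, -0.024 to 0.29 for Fdft1, -0.22 to 0.096 for Sqle (0.091 without both replicates 3) and -0.21 to 0.32 for Lss. The cause of these changes was not tested, beyond fewer libraries in the fit.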
